A study of Mus musculus with 27 samples.

Results

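The genes described are the sensors of the unfolded protein response and the factors that carry their signal: Xbp1, Ern1, Atf6, Atf6b, Eif2ak3, Mbtps1 and Mbtps2. They were chosen by gene name, and all 7 were found among the 45706 genes of the deposited liver table and passed the filter on low values. RNA was measured by mRNA sequencing in livers of WT mice, strain given as C57/BLN6, and all groups had first fasted for 16 h. 1 group of 3 libraries was taken fasted, and 4 groups were refed for 30, 60, 120 or 240 min. The other 4 groups had caged food for the same times, a condition known from the study as food that is sensed but cannot be eaten. The only fasted group had no later time points, so the caged food livers had gone longer without eating. Against fasted livers, sensing food and this longer fast cannot be told apart. Refed livers were also taken later than the fasted ones. Each group had 3 libraries, 27 in all, described in the series design as biological replicates. The question was how these genes differ over time with refeeding or with caged food.

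Proteins that enter the endoplasmic reticulum (ER) are folded there by chaperones, and unfolded proteins are sensed by 3 kinds of membrane protein. IRE1, encoded by Ern1, cuts the Xbp1 mRNA so that it is joined anew and encodes an active transcription factor. ATF6 and ATF6B travel to the Golgi, where the site-1 and site-2 proteases (Mbtps1 and Mbtps2) release their cytosolic part as a transcription factor, and PERK, encoded by Eif2ak3, phosphorylates the initiation factor eIF2 and so slows translation. The liver secretes large amounts of plasma proteins and lipoproteins and depends on this system. Gene counts show the amount of mRNA and do not show Xbp1 splicing, cleavage of ATF6 or phosphorylation of any sensor.

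In the GENCODE M21 annotation of the mouse genome GRCm38, Xbp1 (ENSMUSG00000020484) lies at chr11:5520659-5525893 on the plus strand, and Ern1 (ENSMUSG00000020715) lies on the same chromosome at chr11:106394650-106487852 on the minus strand. Atf6 (ENSMUSG00000026663) is at chr1:170704674-170867771, minus, and Atf6b (ENSMUSG00000015461) is at chr17:34647146-34655074, plus. Eif2ak3 (ENSMUSG00000031668) is at chr6:70844515-70905245, plus. Mbtps1 (ENSMUSG00000031835) is at chr8:119508156-119558735, minus, and Mbtps2 (ENSMUSG00000046873) is at chrX:157535371-157598715, minus. Mbtps2 shares its span with Yy2 on the same strand and with Gm6568, Atf6 holds 2 small nuclear RNA genes, and Eif2ak3 holds a small nucleolar RNA gene and an antisense gene. The counting's use of strand is not given in the sources used here, so reads of these overlapping genes cannot be told apart for certain.

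The 4 genes called in the test over all 9 groups, Xbp1, Ern1, Atf6b and Eif2ak3, are shown with the 250 bases before their RefSeq start site (GRCm38.p6), because these windows are where promoter elements of the response would be read. The window of Xbp1 is chr11:5520391-5520640 on the plus strand, that of Ern1 is chr11:106487797-106488046 on the minus strand, that of Atf6b is chr17:34646896-34647145 on the plus strand, and that of Eif2ak3 is chr6:70844265-70844514 on the plus strand. Each is written 5′ to 3′ along the gene, and capitals mark the CCAAT box, the CCACG motif and the ACGT core on either strand.
Xbp1: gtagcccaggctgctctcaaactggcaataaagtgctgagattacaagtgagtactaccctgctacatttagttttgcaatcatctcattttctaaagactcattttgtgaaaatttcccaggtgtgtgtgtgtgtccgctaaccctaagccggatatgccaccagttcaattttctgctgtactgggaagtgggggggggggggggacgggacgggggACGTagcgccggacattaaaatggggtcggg
Ern1: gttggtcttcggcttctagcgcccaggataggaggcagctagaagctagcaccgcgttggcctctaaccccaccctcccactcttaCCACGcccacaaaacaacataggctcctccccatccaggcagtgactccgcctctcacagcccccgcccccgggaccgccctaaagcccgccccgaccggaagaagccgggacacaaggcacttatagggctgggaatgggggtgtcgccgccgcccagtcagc
Atf6b: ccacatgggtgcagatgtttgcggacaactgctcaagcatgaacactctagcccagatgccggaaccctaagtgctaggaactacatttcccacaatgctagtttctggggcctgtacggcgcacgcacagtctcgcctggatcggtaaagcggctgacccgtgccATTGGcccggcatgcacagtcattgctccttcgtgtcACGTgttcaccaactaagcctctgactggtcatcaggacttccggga
Eif2ak3: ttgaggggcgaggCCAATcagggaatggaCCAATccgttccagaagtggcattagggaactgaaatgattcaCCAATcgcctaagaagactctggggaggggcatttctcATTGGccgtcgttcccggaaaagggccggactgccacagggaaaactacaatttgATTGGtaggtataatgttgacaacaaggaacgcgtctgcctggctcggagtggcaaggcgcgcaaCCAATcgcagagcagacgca
RefSeq windows were matched for 6 of the 7 genes, all except Atf6. Xbp1 held 1 ACGT core, at position -31 from the start site, and Ern1 held 1 CCACG at -164. Atf6b held a CCAAT box read on the minus strand (ATTGG) at -84 and the E-box CACGTG at -48, which contains the ACGT core at -47. Eif2ak3 held 6 CCAAT boxes, 4 on the plus strand and 2 on the minus strand, and how many other windows hold several was not counted. Mbtps1 held 1 CCACG at -12, and the window of Mbtps2 held none of the motifs searched. Of 32851 RefSeq windows of this length, 33.85% held the CCAAT box, 28.3% held the motif CCACG, 26.9% held the core ACGT and 6.02% held the E-box CACGTG, so a single match of these short motifs is common. The full ER stress elements were also searched on both strands. ERSE, which is CCAAT followed after 9 bases by the CCACG motif, is in 0.113% of all windows. ERSE-II, in which ATTGG is followed after 1 base by the same motif, is in 0.0304%, the XBP1 and ATF6 site TGACGTGG in 0.563% and the cyclic AMP element TGACGTCA in 1.55%. None of these 4 was in the windows of the 6 genes, which says only that these letters are not in these windows.

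The deposited values are read counts scaled per library by the authors, here called normalised read counts. Their totals per library were 40654573 to 50037562. The steps between low values gave an estimated depth of 25600000 to 52400000 reads per library (median 47000000). At that depth the lowest value of any of the 7 genes in any library stood for at least 340 reads. All 7 hepatocyte markers (Alb, Apoa1, Ttr, Serpina1c, Cyp2e1, Cps1, Hnf4a) were present in every library. The library refed 30 min replicate 1 held transcripts of pancreatic acinar cells, with 10 of 10 markers present and a summed level of 6408 against 312 to 710 in the other 26 libraries. On the second principal component of 11983 genes, 3 caged food libraries (30 min replicate 1, 60 min replicate 2 and 120 min replicate 3) had high scores of 19.7 to 24.8, while no other library was above 12.2. In 2 libraries the treatment label disagrees with the title and the column name: refed 240 min replicate 3 and caged food 240 min replicate 1. They were grouped by title. Over 200 genes chosen between refed and caged food at 120 min, without the 7 genes, the 3 libraries titled refed 240 min scored 0.50 to 0.77 towards refed and the 3 titled caged food -0.64 to -0.59, on the log2 scale. The calls of the 7 genes at 240 min, and the list results against fasted livers at 240 min, are given below with and without these 2 libraries. List results against caged food at 240 min are given only with them. In whole liver, fewer cells of a type and less RNA per cell cannot be told apart.

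After refeeding, Xbp1 and Ern1 mRNA rose from 60 min on and Atf6b and Eif2ak3 from 120 min on, with Eif2ak3 highest at 120 min. By 240 min Xbp1 was 1.94-fold, Ern1 1.78-fold and Atf6b 1.72-fold above fasted livers, and neither protease gene was called at any time. Against fasted livers, 0 of the 7 genes were called at 30 min, 2 at 60 min (Xbp1 and Ern1), 4 at 120 min (Xbp1, Ern1, Atf6b and Eif2ak3) and 5 at 240 min (those 4 and Atf6), all of them higher. A gene was called where limma gave an adjusted p (Benjamini-Hochberg over the 15932 genes tested) under 0.05. Of all genes tested, 1.63% were called at 30 min, 11.01% at 60 min, 14.1% at 120 min and 24.3% at 240 min, and the share called higher was 7.26% at 60 min, 7.95% at 120 min and 12.9% at 240 min. At 30 min, Xbp1 and Ern1 had an unadjusted p under 0.05. With caged food, 0 of the 7 genes were called at any time.

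**Figure D1:**
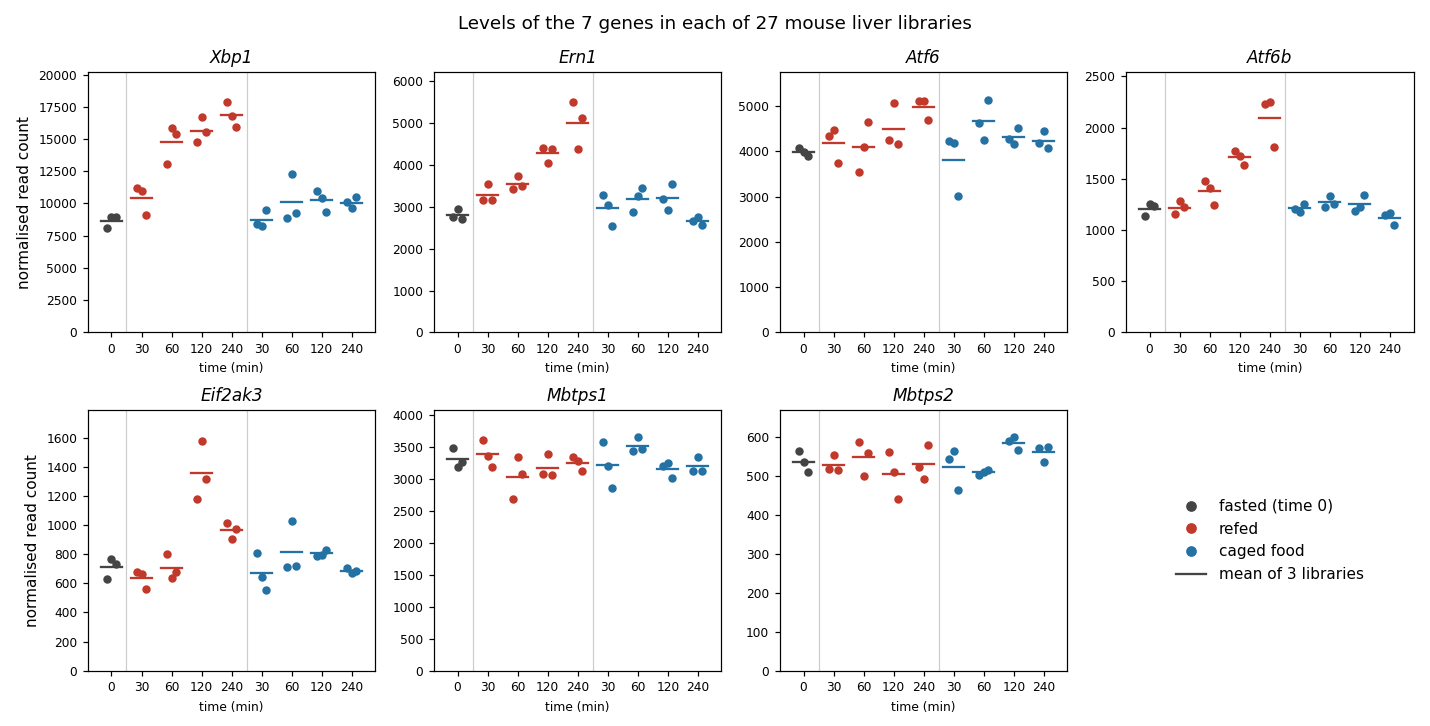
Normalised read count (vertical axes, linear, from 0) of each of the 7 genes in every library (points) with the mean of 3 libraries (bars), for fasted livers (time 0), refed livers and livers with caged food at 30 to 240 min. Xbp1 in refed livers sits between 13040 and 17880 from 60 min on, above all fasted and caged food libraries, and Mbtps1 and Mbtps2 lie within 2680 to 3656 and 439 to 599 in all 9 groups.

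Xbp1 encodes the transcription factor of the IRE1 arm and is the target that IRE1 splices. In the fasted livers its normalised read counts were 8099, 8953 and 8938. In refed livers they were 11203, 10936 and 9119 at 30 min, 13040, 15862 and 15409 at 60 min, 14760, 16672 and 15518 at 120 min, and 17880, 16767 and 15903 at 240 min. Every refed library was above every fasted one, and from 60 min on the refed livers were also above every library with caged food. The log2 fold change against fasted was 0.26 at 30 min (standard error, SE, 0.11 at every time; limma adjusted p = 0.320), 0.77 at 60 min (adjusted p = 3.88e-05), 0.85 at 120 min (adjusted p = 1.02e-05) and 0.96 at 240 min (adjusted p = 8.48e-07). Without the library that held pancreatic transcripts, the value at 30 min was 0.21 (adjusted p = 0.709). Without the 2 libraries with conflicting labels, the value at 240 min was 1.0 and Xbp1 was still called. The ranges of the refed 60, 120 and 240 min groups overlapped from one time to the next.

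Ern1 encodes IRE1, the sensor that splices Xbp1. Its normalised read counts were 2748, 2942 and 2701 in fasted livers and 3162, 3548 and 3159 after 30 min of refeeding. They were 3417, 3733 and 3492 at 60 min, 4407, 4039 and 4384 at 120 min, and 5513, 4394 and 5124 at 240 min. All refed libraries were above all fasted ones, and the group means rose at each step. The log2 fold change was 0.23 at 30 min (SE 0.09 at every time; limma adjusted p = 0.311), 0.34 at 60 min (adjusted p = 0.0195), 0.61 at 120 min (adjusted p = 9.89e-05) and 0.84 at 240 min (adjusted p = 9.51e-07). The call at 60 min rested on single libraries: without fasted replicate 1, fasted replicate 3 or refed 60 min replicate 2, its adjusted p was 0.0603, 0.0826 and 0.0768. Without the 2 libraries with conflicting labels, the change of Ern1 at 240 min was 0.82.

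The paralogs Atf6 and Atf6b, which encode the sensors cut by the Golgi proteases, differed in how much they moved. Atf6b had normalised read counts of 1141, 1253 and 1234 in fasted livers, 1158, 1280 and 1220 after 30 min and 1474, 1410 and 1245 after 60 min of refeeding. They were then 1774, 1721 and 1633 at 120 min and 2225, 2252 and 1806 at 240 min. The refed livers overlapped the fasted ones until 60 min and lay above every fasted and caged food library at 120 and 240 min. The log2 fold change of Atf6b was 0.01 at 30 min and 0.18 at 60 min (SE 0.08 at every time; adjusted p = 0.979 and 0.178), 0.50 at 120 min (limma adjusted p = 1.93e-04) and 0.79 at 240 min (adjusted p = 3.28e-07). Without the 2 libraries with conflicting labels, Atf6b at 240 min was at 0.89.

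Atf6 itself had normalised read counts of 4076, 3996 and 3909 in fasted livers, and in refed livers of 4342, 4481 and 3754 at 30 min, 3542, 4096 and 4660 at 60 min, 4261, 5064 and 4156 at 120 min, and 5121, 5120 and 4695 at 240 min. Only the last group reached an adjusted p under 0.05 against fasted, with a log2 fold change of 0.32 (SE 0.11; limma adjusted p = 0.0430). In that comparison the 3 refed libraries were above the 3 fasted ones, but they overlapped caged food livers at 60 min, which had 4622, 4248 and 5129. The call of Atf6 was lost without the 2 libraries with conflicting labels (0.36, adjusted p = 0.0569), with quantile normalisation (adjusted p = 0.0558), without any filter on low values (adjusted p = 0.0745), and without any 1 of fasted replicates 1 to 3 or refed 240 min replicates 1 and 2 (adjusted p 0.0773 to 0.126). The ratio of Atf6b to Atf6 normalised read counts, not corrected for length, was 0.303 ± 0.0201 (SD, n = 3) in fasted livers, 0.420 ± 0.0304 in refed livers at 240 min and 0.265 ± 0.00744 with caged food at 240 min. The refed libraries at 240 min had ratios of 0.385 to 0.440, above the 0.280 to 0.316 of the fasted livers, and the lowest of the 3 was the library with conflicting labels. Refed livers at 120 min had ratios of 0.340 to 0.416, which overlapped those of refed livers at 240 min. The highest single libraries of caged food at 30 min (0.417) and refed at 60 min (0.416) also fell within the refed 240 min range. The ratio at 240 min thus did not stand apart from all other groups.

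Eif2ak3, which encodes PERK, had its own highest group mean at 120 min of refeeding. Its normalised read counts were 628, 765 and 734 in fasted livers, 680, 663 and 563 at 30 min and 802, 634 and 675 at 60 min of refeeding. They were 1176, 1576 and 1320 at 120 min and 1015, 905 and 970 at 240 min. At 120 min every refed library was above every library of the other 8 groups, and at 240 min the refed libraries were below those of 120 min but above the fasted ones; the step between these times was not tested on its own. The log2 fold change against fasted was -0.16 at 30 min and -0.01 at 60 min (SE 0.14 at every time; adjusted p = 0.764 and 0.974), 0.93 at 120 min (limma adjusted p = 7.19e-05) and 0.45 at 240 min (adjusted p = 0.0223). The change of Eif2ak3 at 240 min was not called without the 2 libraries with conflicting labels (0.44, adjusted p = 0.0623), without fasted replicate 1 (adjusted p = 0.112), or without refed 240 min replicate 1 or 3 (adjusted p = 0.0865 and 0.0537).

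Mbtps1 and Mbtps2, the site-1 and site-2 proteases that cut ATF6, SREBP and other membrane-bound factors, were not called against fasted livers at any time. Mbtps1 ranged from 2680 to 3656 normalised read counts over the 27 libraries and Mbtps2 from 439 to 599. The highest library was 1.36 times the lowest for each of these genes, against 2.21 times for Xbp1 and 2.84 times for Eif2ak3. At 240 min of refeeding the log2 difference from fasted was -0.03 for Mbtps1 (95% interval -0.20 to 0.14) and -0.01 for Mbtps2 (-0.20 to 0.18), and neither was called without the 2 libraries with conflicting labels. Neighbouring groups in the order of means overlapped throughout for Mbtps1, Mbtps2 and Atf6.

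In the 60 min group the Mbtps1 values were 2680, 3344 and 3080 when refed and 3436, 3656 and 3469 with caged food. These did not overlap, at a log2 difference of -0.22 (SE 0.08; limma adjusted p = 0.0854), and without refed 60 min replicate 2 the difference was -0.29 and was called (adjusted p = 0.0321). Mbtps2 at 120 min had 561, 509 and 439 when refed and 588, 599 and 566 with caged food, which also did not overlap, with a difference of -0.22 (SE 0.09; adjusted p = 0.130).

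Per kilobase of exon, the mean normalised read count over the 27 libraries was 3609 for Xbp1, 502 for Atf6b, 467 for Atf6, 421 for Ern1, 308 for Mbtps1, 135 for Eif2ak3 and 53.0 for Mbtps2. The signal-carrying factor Xbp1 thus stood far above every sensor on this scale, and PERK's gene was the lowest of the sensors. These lengths are the union of all annotated exons, so isoforms that leave out exons in liver would change the levels.

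With caged food none of the 7 genes passed the test against fasted livers. Xbp1 read 8394, 8220 and 9511 at 30 min, 8881, 12282 and 9245 at 60 min, 10946, 10462 and 9344 at 120 min, and 10085, 9612 and 10465 at 240 min. At 120 and 240 min these 6 libraries were all above the 3 fasted ones, while at 30 and 60 min the groups overlapped. The log2 difference of Xbp1 from fasted was 0.01, 0.21, 0.24 and 0.22 in time order (SE 0.11), with limma adjusted p between 0.529 and 0.994 from 60 min on and a 95% interval of 0.02 to 0.46 at 120 min. The count of 0 genes called compares with 0.0126% of all genes at 30 min, 0.220% at 60 min, 0.0377% at 120 min and 0% at 240 min. At an unadjusted p under 0.05, 2 of the 7 genes, Xbp1 (0.0354) and Ern1 (0.0464), passed at 120 min and 0 at the other times. limma was the only tool used.

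A single library, caged food 60 min replicate 2, held the highest caged food value of both Xbp1 (12282) and Eif2ak3 (1025). Without it the log2 differences at 60 min were 0.07 for Xbp1 and 0.01 for Eif2ak3, in place of 0.21 and 0.19. In the same library the summed level of the 5 Kupffer cell markers was 24565, against 8763 to 16070 in the other 26 libraries. That of the 6 leukocyte and plasma cell markers was 1642 against 574 to 1369. The stellate cell sum (18586 against 9388 to 16987) and the cholangiocyte sum (1988 against 986 to 1840) were also the highest of all libraries. The hepatocyte sum (4367074 against 3632941 to 6787636) and the sinusoidal endothelium sum (16080 against 12703 to 22200) lay within the others. All of these markers were above 0 in this library. Their part in these values was not tested.

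Refed livers were next compared with caged food livers of the same time. At 30 min 0 of the 7 genes were called (0.276% of all genes), and Xbp1 alone had an unadjusted p under 0.05 in limma (0.0264). At 60 min 1 gene, Xbp1, was higher (10.9% of all genes were called and 6.73% were higher), with a log2 difference of 0.55 (SE 0.11; adjusted p = 0.00132). That difference of Xbp1 was 0.70 without caged food 60 min replicate 2, and its adjusted p was 0.101 when only the 2 groups compared were fitted. At 120 min 4 genes were higher (11.3% called, 5.98% higher): Xbp1 by 0.61, Ern1 by 0.41, Atf6b by 0.45 and Eif2ak3 by 0.74 (adjusted p = 5.29e-04, 0.00535, 7.63e-04 and 9.90e-04). At 240 min the same 4 were higher (27.01% called, 14.6% higher), Ern1 and Atf6b by 0.90 each, Xbp1 by 0.74 and Eif2ak3 by 0.49 (adjusted p = 2.88e-07, 4.90e-08, 1.79e-05 and 0.0114). Atf6 at 240 min differed by 0.23 (adjusted p = 0.137).

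At 240 min Ern1 read 2672, 2756 and 2575 and Atf6b 1142, 1170 and 1051 with caged food, so both group means were the lowest of the 9 groups while the refed livers held the highest. Without the 2 libraries with conflicting labels the differences at 240 min were 0.79 for Xbp1, 0.89 for Ern1 and 1.01 for Atf6b, all still called, and 0.50 for Eif2ak3, which was not (adjusted p = 0.0543). The summed markers of sinusoidal endothelium were 12703 to 13246 in the refed 240 min libraries, below the 14459 to 16266 of the fasted and 14483 to 15151 of the caged food livers at 240 min. Those of stellate cells were 10189 to 13292, against 13899 to 15374 in fasted and 13942 to 15882 in caged food livers. The hepatocyte sums at 240 min were 3632941 to 4857895 when refed and 4755687 to 5023334 with caged food, against 4743695 to 5428692 in fasted livers. Kupffer cell sums were 11230 to 12748 when refed and 9260 to 15878 with caged food, against 9642 to 12134 in fasted livers. For both cell types these ranges overlapped. At 120 min the endothelial sum was also lower in refed livers (13552 to 14271) than in fasted and caged food livers (15929 to 18387 in the latter). All of these markers were above 0 in every group, and their part in the results at 120 and 240 min was not tested.

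**Figure D2:**
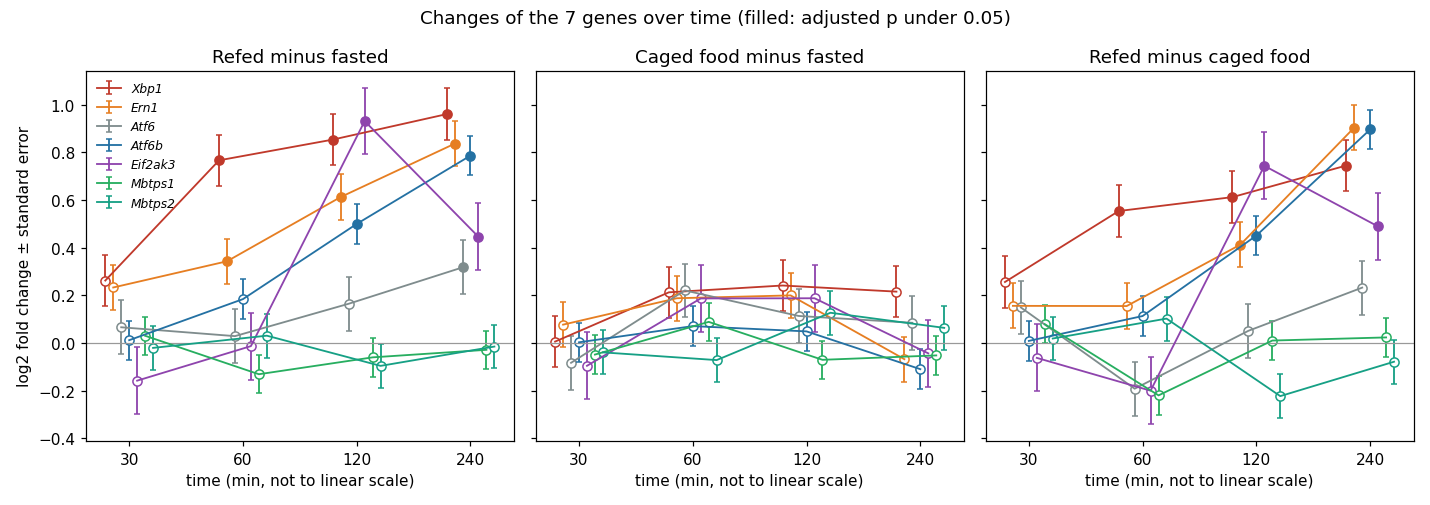
Log2 fold change (vertical axis, with bars of ± 1 standard error of the fit) of the 7 genes over time (horizontal axis, minutes, not to linear scale) in 3 panels, refed minus fasted, caged food minus fasted and refed minus caged food; filled points have an adjusted p under 0.05. In refed livers Xbp1 leads at 60 min with 0.77, Eif2ak3 peaks at 120 min with 0.93 and Ern1 and Atf6b climb to 0.84 and 0.79 at 240 min, and no caged food point is filled.

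Averaged over the 4 times, refed livers had 3 of the 7 genes above fasted (14.95% of all genes called, 8.97% higher): Xbp1 by 0.71, Ern1 by 0.51 and Atf6b by 0.37 on the log2 scale. Eif2ak3 was at 0.30 (limma adjusted p = 0.0695), and it was called without the 4 libraries that stood apart or held pancreatic transcripts (0.29, adjusted p = 0.0278). For caged food the mean over the times called 0 of the 7 genes in limma, against 0% of all genes, and none had an unadjusted p under 0.05. The direct mean difference between refed and caged food called 4 genes (31.3% of all genes called, 17.3% higher), namely Xbp1 at 0.54, Ern1 at 0.41, Atf6b at 0.37 and Eif2ak3 at 0.24. These comparisons share the fasted livers or the refed livers, so their counts are not independent of each other.

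The F test over all 9 groups called the same 4 genes (34.8% of all genes called), with F = 24.7 for Atf6b, 23.2 for Xbp1, 18.9 for Ern1 and 12.0 for Eif2ak3. Whether the gap between refed and caged food itself changed with time was tested with a second F test, which called 9.97% of all genes. It called 3 of the 7: Atf6b (F = 23.5, limma adjusted p = 1.02e-04), Ern1 (F = 13.8, adjusted p = 0.00145) and Eif2ak3 (F = 10.2, adjusted p = 0.00601). Xbp1, whose gap was already 0.55 at 60 min, had F = 3.66 (adjusted p = 0.144), and F = 5.91 (adjusted p = 0.0432) without caged food 60 min replicate 2. The order of the group means showed these courses. Xbp1 had its 3 highest groups at refed 60, 120 and 240 min, apart from the group below them. Ern1 had refed 120 and 240 min apart from the rest, Atf6b had refed 240 min apart from refed 120 min and that apart from the rest, and Eif2ak3 had refed 120 min apart from refed 240 min.

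The genes around these sensors were read from 5 lists of the pathway, with refed livers against fasted ones first. Of 13 ER chaperones and folding factors, 0 rose at 30 min, 4 at 60 min, 13 at 120 min and 12 at 240 min, and none fell. Their median log2 fold change went from 0.16 and 0.29 to 0.98 and 1.53, while the median of all genes tested was within 0.02 of 0 at each time. Creld2, an ER folding factor, had the largest values of the named ones, 1.49 at 60 min, 2.84 at 120 min and 3.37 at 240 min (SE 0.33). Manf, a secreted ER stress protein, was at 2.22 and 2.71, and Hyou1, a large ER chaperone, at 1.96 and 2.42 at 120 and 240 min. Hspa5, the master chaperone BiP that holds the sensors inactive, went from 26353 ± 4242 (SD, n = 3) in fasted livers to 76420, 147147 and 149335 in the refed 240 min libraries, a log2 fold change of 2.19 (SE 0.22; limma adjusted p = 1.93e-07). At 240 min 12 of the 13 chaperones were also higher without the 2 libraries with conflicting labels, with a median of 1.92, and Creld2 was at 3.91.

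Of 12 genes of ER degradation and translocation, many known to depend on XBP1, 0 rose at 30 min, 2 at 60 min, 8 at 120 min and 11 at 240 min, with medians of 0.16 at 60 min, 0.59 at 120 min and 0.93 at 240 min. None of them fell. The genes at 60 min were Dnajb9, an ER co-chaperone (0.63), and Syvn1. Syvn1, the ubiquitin ligase HRD1, rose at 60 min (0.81, SE 0.18; limma adjusted p = 0.00391) and stood at 1.84 at 120 min and 1.78 at 240 min. Sel1l, its partner in the membrane complex, was at -0.02 at 60 min and rose by 0.66 at 120 min and 0.78 at 240 min, and Ssr1, a subunit at the translocon, rose by 0.59 and 1.0. At 240 min, 11 of the 12 were again higher without the 2 libraries with conflicting labels, with a median of 1.06.

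The PERK and ATF4 arm moved in both directions. Of its 14 genes, 1 rose at 30 min, 4 rose and 3 fell at 60 min, 5 rose and 3 fell at 120 min, and 6 rose and 5 fell at 240 min, with a median of 0.23 at 240 min. Of all genes tested, 3.75%, 6.13% and 11.4% were lower at 60, 120 and 240 min. The 240 min counts were 5 higher and 4 lower without the 2 libraries with conflicting labels. Atf3, a stress-induced transcription factor, was the 1 gene called at 30 min, at 36.0 in fasted and 197 in refed livers (log2 fold change 2.44, SE 0.27; limma adjusted p = 1.77e-05). Ddit3, which encodes CHOP, went from 295 in fasted livers to 945 at 60 min (1.65, SE 0.21) and stayed at 1.78 and 1.74. Sesn2, a stress-inducible inhibitor of mTORC1 signalling, fell from 1085 to 303 at 60 min (-1.84, SE 0.20) and stayed at -1.78 at the later times. Trib3 and Chac1, which are known targets of ATF4, were the other 2 that fell at 60 min (-2.03 and -2.16), and Atf4 itself rose by 0.28 at 240 min (adjusted p = 0.0390); these 3 genes were picked after their values were seen.

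Of 7 partners of IRE1 tested, 0, 1 and 0 were called at 30, 60 and 120 min. Of 11 other substrates and escorts of the proteases, 0, 0 and 2 were called. The shares of all genes at these times were 1.63%, 11.01% and 14.1%. At 240 min 2 of 7 partners and 4 of 11 substrates were called, not far from the 24.3% of all genes. Counts in lists this small and this near the shares are not read as a result about the lists. Of 8 listed IRE1 partners 7 were tested, since Ern2, the paralog of Ern1, had at most 3 normalised read counts in any library. Traf2, an adaptor that binds IRE1, rose by 0.23 at 60 and at 240 min (limma adjusted p = 0.0436 and 0.0260), and Tmbim6, an ER membrane inhibitor of cell death, fell by 0.33 at 240 min (adjusted p = 0.0274), and no other partner was called against fasted livers. Without the 2 libraries with conflicting labels, Traf2 was still called at 240 min (limma adjusted p = 0.0276) and Tmbim6 was not (adjusted p = 0.0543). Against caged food at 240 min, Traf2 was higher by 0.45, Tmbim6 lower (-0.30), and Map3k5, the kinase ASK1, lower (-0.49, adjusted p = 0.0392). Rtcb, the ligase that joins the cut Xbp1 mRNA, stayed between -0.11 and 0.12 and was not called against fasted livers.

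Of 11 other protease substrates and escorts, 0 were called at 30 and 60 min, 1 rose and 1 fell at 120 min, and 1 rose and 3 fell at 240 min. Creb3l3, the liver factor CREB-H of the fasting response, fell by 0.38 at 120 min and by 0.54 at 240 min (SE 0.10; limma adjusted p = 0.0135 and 3.83e-04). Creb3l2 rose by 0.69 at 120 min and 0.42 at 240 min (adjusted p = 0.00232 and 0.0388), with its highest value at 120 min as for Eif2ak3. Scap, the escort of SREBP, fell by 0.35 at 240 min (adjusted p = 0.00225), Insig2, which holds it in the ER, fell by 0.98 (adjusted p = 0.0142), and Srebf1 was at 0.89 there (adjusted p = 0.0641). In the fit without the 2 libraries with conflicting labels, 0 of the 11 were higher and 2, Creb3l3 and Scap, were lower at 240 min, and Creb3l2 and Insig2 were not called (adjusted p = 0.0904 and 0.0655).

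With caged food, 1 gene of the 5 lists was called against fasted livers, Herpud1 at 60 min (1.12, SE 0.24; limma adjusted p = 0.0467), an ER membrane factor of degradation. All 3 of these caged food libraries, at 26317, 29422 and 31158 for Herpud1, were above the fasted ones (9280 to 17306). The chaperone list, which holds Herpud1, had a median of 0.51 at 60 min. That median was 0.29, with 0 called, when caged food 60 min replicate 2 was left out. Hspa5 at that time was at 0.57 (SE 0.22; limma adjusted p = 0.359). Of this list, 0 genes were higher in refed than in caged food livers at 60 min and 1, Herpud1, was lower (-1.15), and 1 was higher and 1 lower without caged food 60 min replicate 2, whereas at 120 min 13 of 13 and at 240 min 12 of 13 were higher.

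**Figure D3:**
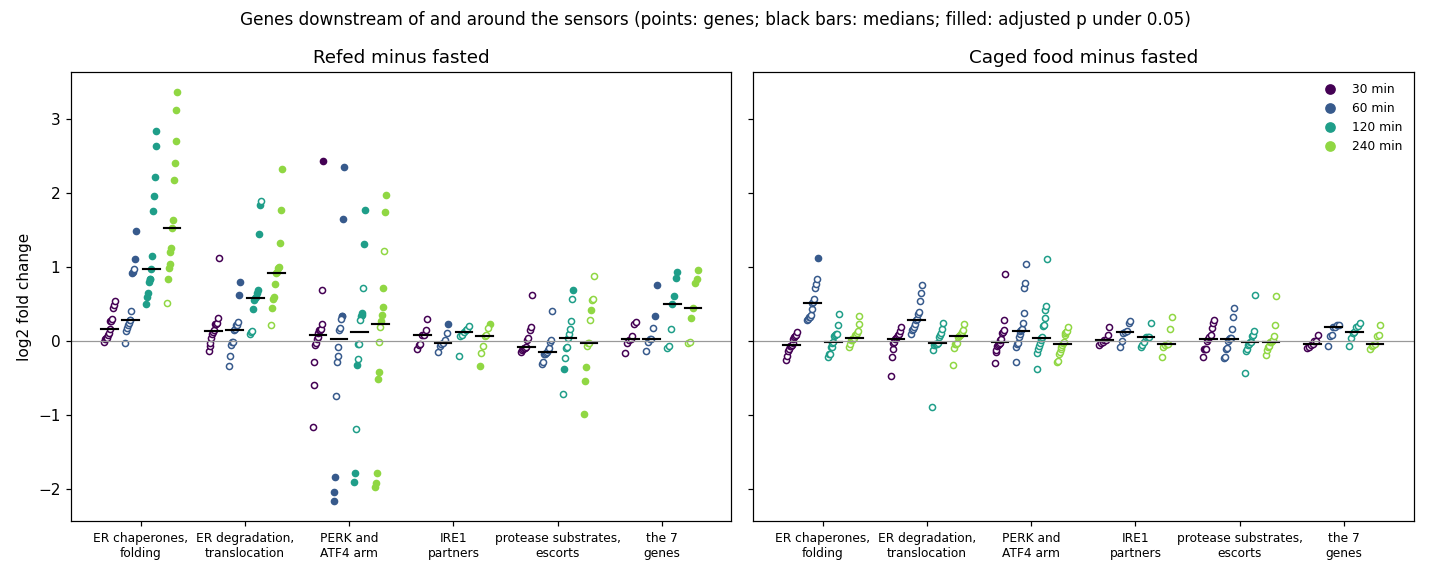
Log2 fold change (vertical axis) of each gene of the 5 pathway lists and of the 7 genes, at 30 to 240 min (colours), for refed minus fasted and caged food minus fasted; points are genes, bars are list medians and filled points have an adjusted p under 0.05. In refed livers the chaperone median climbs from 0.16 to 1.53 and the PERK and ATF4 genes spread to both sides of 0. With caged food 1 point is filled, Herpud1 at 60 min, a degradation factor kept in the list of chaperones and folding factors.

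The genes whose courses over the 27 libraries were most like each member were found by Pearson correlation of log2 values among 11202 genes of mean at least 50. Xbp1 was most like Exog (r = 0.93), Alg12 (0.93), a mannosyltransferase of the ER, and Srp19 (0.93), a subunit of the signal recognition particle. Ern1 was most like Zbtb40 (0.92), Inpp5f (0.92) and Heatr6 (0.91), and Atf6b was most like Cad (0.98), the enzyme of pyrimidine synthesis, Actb (0.97) and Tmem214 (0.96). Eif2ak3 was most like Mkl1 (0.89), Adgrl2 (0.87) and Stx5a (0.85), the last a syntaxin of ER to Golgi transport, and the genes most like Atf6 included C1galt1 (0.82) and Arhgap35 (0.80). The closest genes were less alike for Mbtps1 (Proz, 0.78) and Mbtps2 (Pdpk1, 0.64). These points share groups of 3 libraries and the same scaling, and the values describe likeness only.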

How the data were processed

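Liver mRNA of 27 samples was sequenced from a stranded TruSeq library, per the labels' protocols. Reads were aligned with STAR 2.4.0a and counted with featureCounts 1.4.5-p1 of Subread on mm10 (GRCm38), per the submitters' processing notes. The deposited table holds a score per gene and library: read counts that the authors scaled and rounded, by a method not given in the sources used here, as are the annotation release and strand setting. No count test was run on these values. The 1-read step of each library, 0.776 to 1.69 normalised counts, was estimated from low values, with an error of at most 8.73% on simulated factors. The annotation held 98.8% of the gene identifiers.

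Genes of at least 10 in at least 3 libraries (15932 of 45706) were taken as log2(value + 1), so fold changes of low genes are understated, and fitted with limma 3.58.1 (mean-variance trend, R 4.3.3) over all 27 libraries in 9 groups; p-values were adjusted over all genes in each comparison. Each p-value sets a difference between groups against the spread between libraries within groups, estimated over all 9 groups. In a simulated copy of the refed 120 min against fasted comparison (15857 genes), 36 of 67 genes changed 1.5-fold, 44 of 67 changed 2-fold and 58 of 66 changed 4-fold were called, with 7 false calls. Named list genes are the 3 of lowest p over the 9 groups in each list, plus Hspa5, Ddit3, Srebf1 and Creb3l3, and Dnajb9, Herpud1, Trib3, Chac1, Atf4, Map3k5 and Insig2 were added after their values were seen; the 3 most like genes of each member were ranked by Pearson r, and 1 of them is not reported here. The members and lists were chosen with earlier results of these data known. Samples beyond the 27 were not analysed here. Alternatives were quantile normalisation, a pseudocount of 5, no filter, a replicate block, only the groups compared, both treatments of the label conflict and leaving out each library. Leaving out 4 libraries that stood apart was added after seeing the data. Python 3.11.15, numpy 2.4.6, pandas 2.3.3 and matplotlib 3.10.9 were used.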

Additional observations from a re-analysis of the deposited data

Results flagged for a closer look

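The gap between refed and caged food livers changed over the 4 times in Ern1, Atf6b and Eif2ak3, by an F test on the difference itself in limma. The F value was 13.8 for Ern1 (adjusted p = 0.00145), 23.5 for Atf6b (adjusted p = 1.02e-04) and 10.2 for Eif2ak3 (adjusted p = 0.00601). For Ern1 the gap was 0.16 at 30 and 0.15 at 60 min, 0.41 at 120 min and 0.90 at 240 min on the log2 scale, and for Atf6b it was 0.01, 0.11, 0.45 and 0.90. For Eif2ak3 it was -0.06, -0.20, 0.74 and 0.49, so it was largest at 120 min.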

How the results depend on the processing

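Across 38 pairs of a member and a comparison, 800 values were recomputed: 749 kept their direction and side of the threshold, 44 kept the direction but lost the call, 26 of them under the treatment label, 7 gained a call, and 0 turned. Grouped by the treatment label, members called became 1, 2 and 0 for refed against fasted at 60, 120 and 240 min, 0, 1 and 0 for refed against caged food at those times, 1 for each of the refed mean against fasted and the refed mean against caged food, 2 for the F test over 9 groups and 0 for the F test over time. All genes called then fell from 260 to 103, 1754 to 901, 2243 to 768 and 3879 to 0 for refed against fasted at the 4 times, and from 44 to 4, 1738 to 908, 1797 to 376 and 4303 to 1 for refed against caged food. The means went from 2382 to 247 and 4990 to 1656, and the F tests from 5539 to 1880 and 1588 to 43. Without the 2 libraries with conflicting labels, 3 members were called for refed 240 min against fasted. With only the groups compared, 0 members were called for refed against caged food at 60 min, and all genes called fell from 1754 to 1153 for refed 60 min against fasted, 44 to 20 for refed against caged food at 30 min and 1738 to 465 at 60 min. Leaving out single libraries gave 1 to 2 members for refed 60 min against fasted (1 without fasted replicate 1, fasted replicate 3 or refed 60 min replicate 2), 3 to 5 for refed 240 min against fasted (3 without fasted replicate 1 or refed 240 min replicate 1) and 1 to 2 for refed against caged food at 60 min (2 without refed 60 min replicate 2). Without the 4 libraries that stood apart, 20 genes in all were called for refed against caged food at 30 min. Leaving out 1 library lowered all genes called by over 1.5 times: from 260 to 89 to 159 for refed 30 min against fasted (without fasted replicate 2 or 3 or refed 30 min replicate 1 or 2), 1754 to 1131 or 1155 at 60 min (fasted replicate 2 or 3), 2243 to 1490 at 120 min (fasted replicate 2), 44 to 8 to 25 and 1797 to 1111 for refed against caged food at 30 min (without refed replicate 2 or 3 or caged food replicate 1 or 3) and 120 min (without refed 120 min replicate 2), 2382 to 1219 to 1550 for the refed mean (without any 1 fasted library) and 1588 to 1040 for the F test over time (without refed 240 min replicate 1). Caged food against fasted called 35 genes at 60 min, 0 to 20 under 7 alternatives that leave out no single library and 2 to 34 without single libraries, and the 2 and 6 calls at 30 and 120 min moved to 1 or 0 with only the groups compared, by the treatment label or without those 4 libraries.

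Replicate numbers did not pair the libraries: over 108 pairs of the same number, the mean correlation of deviations was -0.00944 (-0.227 to 0.231), and 8 of 27 libraries were closest to their own number. With the replicate block, members called stayed at 0, 2, 4 and 5 for refed against fasted and at 0, 1, 4 and 4 for refed against caged food; all genes called for caged food at 60 min went from 35 to 20. With 3 libraries a group, changes of 1.5 times were often missed in the simulated data, where 36 of 67 were called. The changed genes there were drawn from all genes that passed the filter. They were far fewer than the 2243 called in the measured comparison, so the rate for the 7 genes was not measured.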
